A study of Mus musculus with 11 samples.

Results

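The miRNAs numbered miR-6896 to miR-7093 were taken from the small RNA tables of spermatogonial progenitor cells (SPCs). Every row whose name lies in the run from miR-6896 to miR-7093 was kept, with either arm, and 154 of the 1096 mature miRNAs listed met this rule. They carry 126 different numbers, with 96 rows for 3p arms and 58 for 5p arms. SPCs are Thy1-positive germ cells of mouse pups that are cultured on inactivated STO fibroblast feeders. The labels give the strain as C57BL/6, the tissue as testis and the age as postnatal day 6, whereas the methods of the study give pups of 6 to 8 days of B6;129S-Gt(Rosa)26Sor/J mice. Control cells (Mov10 Vector) received the empty lentiviral shRNA vector and knockdown cells (Mov10 knockdown) a vector with an shRNA against Mov10, an RNA helicase. Each group is 1 small RNA library, so no value has a replicate error, and every interval and p-value below covers counting error between these libraries only.

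Most miRNAs are cut from a longer primary transcript by the nuclear enzyme Drosha. Mirtrons instead are short hairpins whose ends are made by splicing of an intron, which is then debranched and cut by Dicer. In tailed mirtrons only 1 end of the hairpin is a splice site and the rest of the intron has to be trimmed away. The 3p arm of a mirtron therefore can include the end of an intron, with its pyrimidine-rich stretch and final AG.

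The mature forms with the most reads show this composition. In the following RefSeq sequences (GRCm38.p6) the seed, bases 2 to 8, is in capitals. The first 4 are the members with the most reads, the next 2 are lower 3p forms that were higher in the knockdown library, and the last 2 are the 5p forms with the most reads.
miR-7068-3p: uCACCCUGgacugacucucag
miR-6944-3p: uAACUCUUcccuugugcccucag
miR-7015-3p: uCUCACUGuccucugcacuag
miR-7035-3p: uCUGAGCCgcugucccugcag
miR-6911-3p: uCAAUCACacucuguccacag
miR-7043-3p: aCUGUGCCucucuguuuucag
miR-6960-5p: cAGGAUGAgaagaguuuggcug
miR-6992-5p: uGCCUGUGaugguuuggcugagu
All 6 of these 3p forms end in AG and neither of the 5p forms does.

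The 2 members with the most reads come from hairpins that fill an intron from end to end, and their hairpins are shown because both splice sites can be read in them. Capitals mark the mature arms.
Mir7068: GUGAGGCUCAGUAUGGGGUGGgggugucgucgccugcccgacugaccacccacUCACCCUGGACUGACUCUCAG
Mir6944: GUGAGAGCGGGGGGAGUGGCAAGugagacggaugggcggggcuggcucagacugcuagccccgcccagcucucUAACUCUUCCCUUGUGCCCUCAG
Mir7068 lies at chr8:72470016-72470089 (GRCm38, minus strand) and is the whole of intron 4 of Cherp in the GENCODE annotation, an intron of 74 bases that is also part of an exon in another annotated transcript. Mir6944 lies at chr13:55477681-55477776 (minus strand) and is the whole of intron 9 of Dbn1, which encodes the actin-binding protein drebrin. Both hairpins begin with GU and end with AG.

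RefSeq entries, with those of chromosome 18 left out, matched 139 of the 154 rows, 85 of them 3p and 54 5p. The others are miR-6913-3p, miR-6952-3p, miR-6952-5p, miR-6953-3p, miR-6954-3p, miR-6956-3p, miR-6970-3p, miR-6970-5p, miR-6971-3p, miR-6979-3p, miR-7029-3p, miR-7042-5p, miR-7060-3p, miR-7064-3p and miR-7064-5p. Of the 85 sequences of 3p forms, 72 (84.7%) ended in AG, against 33 of 371 (8.89%) 3p forms with other numbers. The final 3 bases were CAG in 62 of the 85 and UAG in 9. The median share of pyrimidines was 71.4% in these 3p forms and 31.8% in the 54 5p forms, whereas 3p and 5p forms with other numbers had medians of 54.5% and 50%. Median GC content was 57.1% for the 3p forms and 56.5% for the 5p forms, compared with 50% and 47.6% for the same arms of other miRNAs. GU was the start of 3 of the 54 5p forms (5.56%) and of 15 of 317 (4.73%) 5p forms with other numbers. The forms ending in AG held 97.1% of the 3p reads with a sequence in the control library and 97.6% in the knockdown library.

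The hairpins were then placed in the genome. Outside chromosome 18, which was left out, RefSeq hairpins were available for 177 numbers of the range, listed or not in the tables. These 180 hairpins were placed against same-strand introns of GENCODE vM21. The 3′ end of the hairpin lay within 5 bases of the 3′ end of an intron in 168 of the 180 (93.3%), and in 167 of these it was the last base of the intron. Among 825 hairpins with other numbers, 39 (4.73%) lay there. Of the 207 hairpins placed at an intron 3′ end, 81.2% thus carry a number from this range. The range was filled largely by mouse mirtrons when miRBase numbers were given. This contrast, like that of the AG ends, therefore describes how the range was filled and is not a finding of these libraries. Both ends matched the intron in 12 hairpins, from introns of 67 to 137 bases. In 156 hairpins the 3′ end alone matched, and a median of 490 bases of intron lay before the hairpin. In 4 hairpins the 5′ end alone matched, among them Mir6927 in Mllt6. A further 7 ran past an intron end by more than 5 bases, such as Mir6925 in Kif1c, and 1 lay inside an intron away from both ends.

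**Figure D1:**
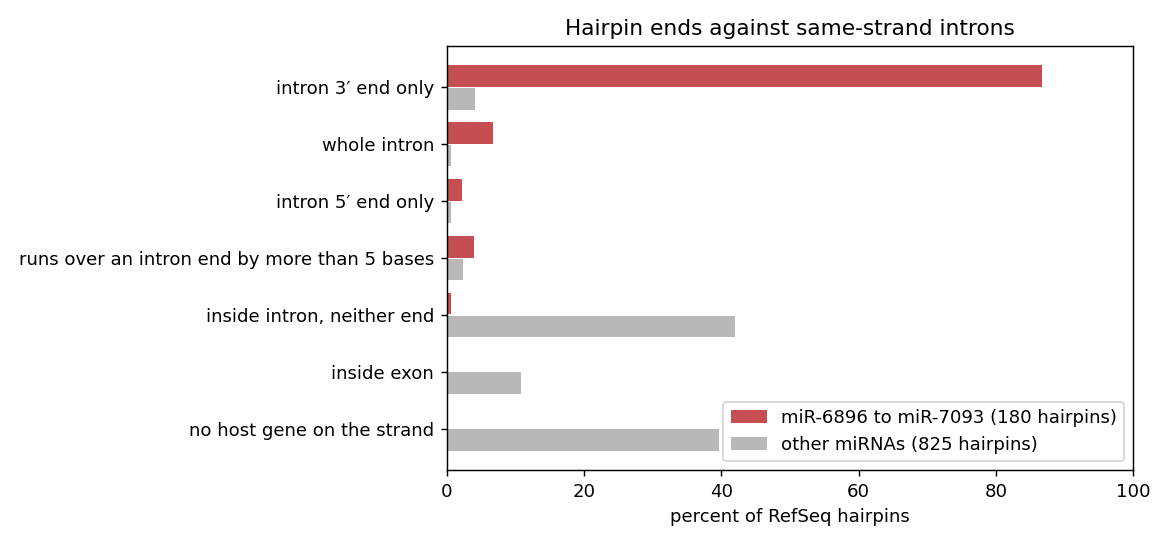
Percent of RefSeq hairpins in each position relative to annotated introns of the same strand, for 180 hairpins numbered miR-6896 to miR-7093 (red bars) and 825 others (grey bars). Of the hairpins of the series, 86.7% end with the intron at the 3′ end only and 6.67% fill the intron, against 4.12% and 0.606% of the others.

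The mature 3p form itself ended on the last base of the intron in 66 of the 76 listed 3p forms with a sequence whose hairpin lies at an intron 3′ end (86.8%). The hosts of the members named here are unlike in function. Mir7035 ends intron 17 of Rasa4, a Ras GTPase-activating protein, Mir6911 ends intron 5 of Dazap1, an RNA-binding protein, and Mir7043 ends intron 4 of Rassf4. Mir6960 ends intron 8 of Troap, and Mir6992 ends intron 3 of Stx5a, a syntaxin of vesicle transport. Mir7035 and Mir6992, like Mir7068, are also part of an exon in another annotated transcript. Mir7075 ends intron 1 of Terf2, which encodes a telomere-binding protein.

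Seeds were mostly private to 1 member. The 139 sequences had 133 distinct seeds, and 5 seeds were shared by more than 1 member. The largest of these groups was that of miR-7068-3p, miR-7018-3p and miR-7023-3p, which had 937 reads over both libraries, 933 of them on miR-7068-3p. miR-6960-5p and miR-7093-5p shared another seed. None of the 139 sequences was found inside a RefSeq hairpin that gives rise to a differently named miRNA, with hairpins of chromosome 18 not searched.

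Together the members formed a small part of the miRNA pool. Their rows summed to 1742 reads in the control library, which is 0.0181% of its 9628835 miRNA reads (95% Wilson interval 0.0173 to 0.0190%). In the knockdown library they summed to 378 reads, which is 0.0135% of 2794593 (0.0122 to 0.0150%). TPM here scales reads to the library total that the deposited values imply, 10518277 for the control library and 3194363 for the knockdown library. The summed level was 166 TPM in control and 118 TPM in knockdown SPCs, a ratio of 0.715 (exact 95% interval 0.638 to 0.799). In plain reads the knockdown library had 0.217 times the reads of the control on these members and 0.290 times on all miRNAs. Without miR-7068-3p the ratio was 0.852 (0.737 to 0.982), and without the 5 members with the most reads it was 0.662 (0.535 to 0.814). By reads over both libraries, the 101 members with 1 to 3 reads had a ratio of 0.696 (0.453 to 1.04), the 29 with 4 to 9 reads 0.654 (0.416 to 0.993), the 20 with 10 to 30 reads 0.668 (0.496 to 0.886) and the 4 with more 0.735 (0.641 to 0.842), and these intervals overlap. For the 3p rows the ratio was 0.704 (0.625 to 0.791), and for the 5p rows, with 133 and 34 reads, it was 0.842 (0.560 to 1.23), an interval that includes 1.

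Other groups of miRNAs were measured in the same way. All 942 miRNAs with other numbers had a ratio of 0.956 (0.954 to 0.957), and the 713 of them in the same range of reads, 1 to 933 over both libraries, had 0.838 (0.823 to 0.853). The 713 are not matched to the members in depth, since their median was 13 control reads and that of the members 2. The 13 rows of mirtrons with other numbers (miR-702, miR-877, miR-1224, miR-1981, miR-3082, miR-3097 and miR-5134) had 524 and 124 reads and a ratio of 0.779 (0.635 to 0.949). Their interval overlaps that of the series. The study tested the splicing of all of these but miR-702 and miR-1224, among intronic miRNAs that it called downregulated. A lower level of this group would therefore not be independent evidence. The 103 other rows numbered from 5000 upward summed to 34004 control and 51609 knockdown reads, a ratio of 5.00 (4.93 to 5.07), although 62 of the 103 had a lower level in the knockdown library and 41 a higher one. Of these reads, 36 rows with no arm label held 33214 and 51485. In the remaining 67 rows, which were set apart after the values were seen, the ratio was 0.517 (0.424 to 0.625). With 1 library per group, none of these differences could be set against the spread between cultures.

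**Figure D2:**
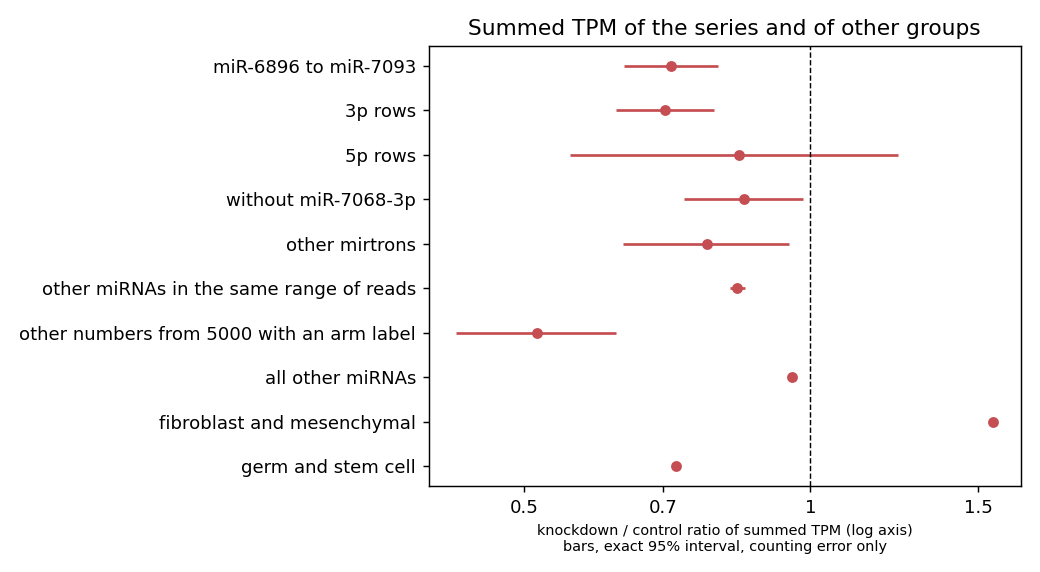
Ratio of summed TPM, knockdown over control (log axis), for the members, parts of them and other groups of miRNAs, with exact 95% intervals that cover counting error only. The series sits at 0.715, between the other late numbers with an arm label at 0.517 and all other miRNAs at 0.956 (all other late numbers together, at 5.00, are not drawn), and without miR-7068-3p it sits at 0.852.

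Marker miRNAs of cell types, germ cells among them, differed between the libraries as well. The 9 miRNAs listed as fibroblast and mesenchymal summed to 171291 TPM in control and 265993 TPM in knockdown SPCs, and 7 of the 9 were higher in the knockdown. The others, miR-214-3p (423 and 316 TPM) and miR-145a-5p (114 and 99.6 TPM), were lower. The largest part of this sum in the knockdown was miR-21a-5p, with 51967 and 107056 TPM, which is not particular to fibroblasts. Most of the rest was miR-22-3p (50580.5 and 70510.5 TPM) and miR-10b-5p (43283 and 59217 TPM). The study names miR-21a, together with miR-20a and miR-106a, as important for the fate of SPCs. The list for germ and stem cells held miR-290a-5p, miR-291a-3p, miR-292a-3p, miR-293-3p, miR-294-3p, miR-295-3p, miR-182-5p, miR-183-5p, miR-96-5p, miR-20a-5p and miR-106a-5p. All 11 were lower in the knockdown, and their sum was 154191 TPM in control and 111317 TPM in knockdown SPCs, a ratio of 0.722. The list was chosen and does not hold all miRNAs of these cells, so the shared direction applies to these 11 only. The 4 blood cell miRNAs summed to 17.6 and 5.95 TPM, all 4 lower in the knockdown. No marker of the 3 lists was at 0 in either library. Their part in the lower level of the series was not tested, and fewer germ cells cannot be told apart from less of these RNAs per cell.

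Many members were detected by few reads. Every listed miRNA had at least 1 read in 1 of the libraries or both. RefSeq holds 352 mature forms of this range outside chromosome 18, and 139 of these are listed. One control read equalled 0.0951 TPM and 1 knockdown read 0.313 TPM, and a count of 0 allows up to 3 reads, or 0.285 and 0.939 TPM. At least 1 read was found for 142 members in control and for 69 in knockdown SPCs. Of these, 57 had reads in both libraries, 85 in the control only and 12 in the knockdown only. Over all 1096 miRNAs, 795 had reads in both, 263 in the control only and 38 in the knockdown only. Of the 85, 61 had 1 or 2 control reads. If the control reads were drawn at the depth of the knockdown library, 84.1 members would be expected with at least 1 read, where the knockdown had 69. For the other 942 miRNAs the same figure was 805, where the knockdown had 764. Only 4 members had 10 or more reads in both libraries, and 101 of the 154 had 3 reads or fewer over both.

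**Figure D3:**
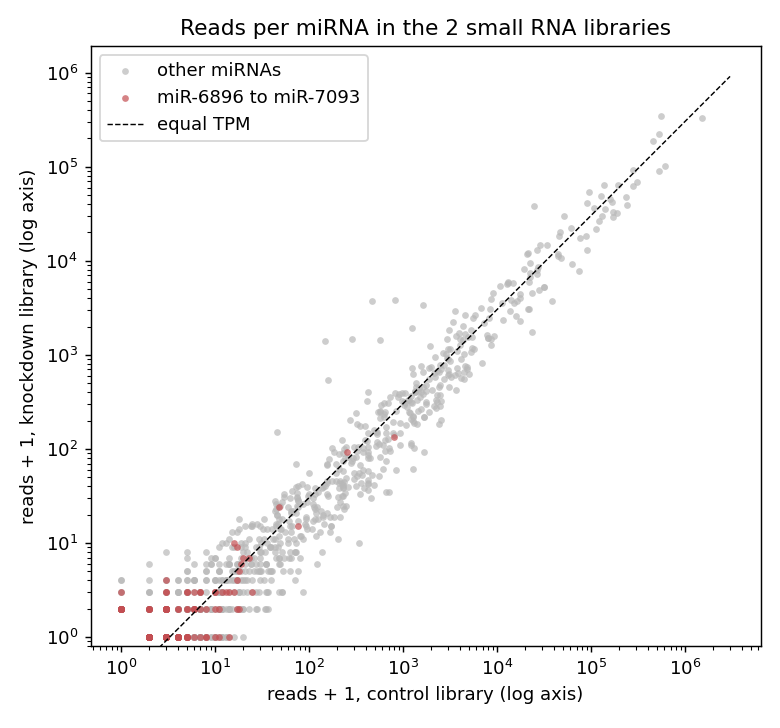
Reads + 1 of each of the 1096 miRNAs in the control (x) and the knockdown library (y), both on log axes, with the members in red, others in grey and equal TPM as a dashed line. Members lie at the low end, and 4 have 10 or more reads in both libraries.

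miR-7068-3p had the most reads, with 799 control and 134 knockdown reads. These are 45.9% of all control reads of the series and 35.4% of its knockdown reads. Its control level was 76.0 TPM (95% Poisson interval 70.8 to 81.4) and its knockdown level 41.9 TPM (35.1 to 49.7), and the intervals do not overlap. The log2 ratio of TPM + 0.1 was -0.86 (adjusted p = 7.29e-11, exact binomial test with Benjamini-Hochberg adjustment over all 1096 miRNAs). It was the only member that passed this test, while 21.4% of all miRNAs were lower and 10.7% higher by it. Without adjustment 2 members were lower and 0 higher at 0.05, the other being miR-7052-3p, where 23.5% of all miRNAs were lower and 12% higher.

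miR-6944-3p was second, with 251 control and 91 knockdown reads, or 23.9 and 28.5 TPM, so it did not share the lower level of miR-7068-3p, although both come from whole-intron hairpins. Its ratio was 1.19 (0.929 to 1.52, exact binomial test, adjusted p = 0.370).

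miR-7015-3p had 76 and 14 reads, or 7.23 and 4.38 TPM, a ratio of 0.607 (0.317 to 1.08). miR-7035-3p had 47 and 23 reads, or 4.47 and 7.20 TPM, a ratio of 1.61 (0.934 to 2.71). Both intervals include 1, and the values lie on opposite sides of it. The 4 members with over 30 reads held 67.3% of the control reads of the series and 69.3% of its knockdown reads.

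**Figure D4:**
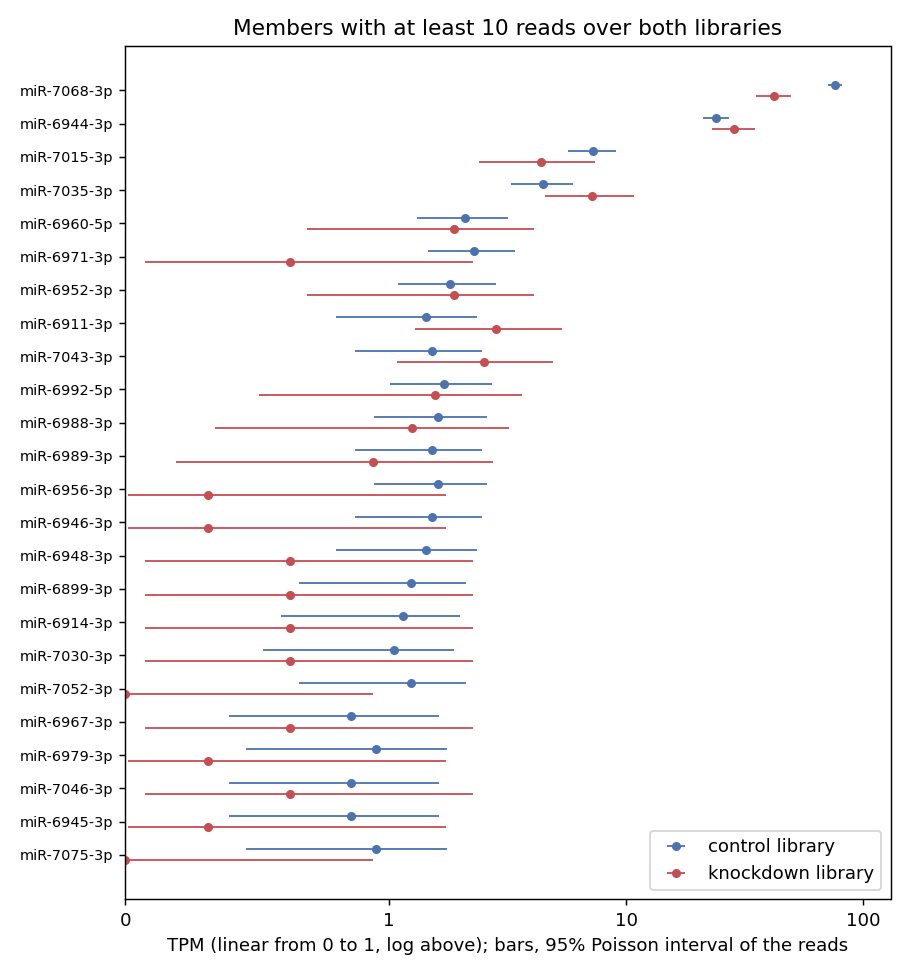
TPM of the 24 members with at least 10 reads over both libraries in the control (blue) and knockdown library (red), with 95% Poisson intervals of the reads (for 0 reads, up to the level of 3 reads), on an axis that is linear to 1 TPM and logarithmic above. Only for miR-7068-3p does the exact interval of the ratio leave out 1, and 19 of the 24 are lower in the knockdown library. Over all 1096 miRNAs, with no minimum of reads, 744 are lower.

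Below these, no member had more than 24 reads in the control or more than 9 in the knockdown. miR-6911-3p had 15 and 9 reads (1.43 and 2.82 TPM), and miR-7043-3p had 16 and 8 (1.52 and 2.50 TPM). These were the 2 largest rises on the log2 scale among members with at least 10 reads, 0.93 and 0.68. miR-6952-3p, with 19 and 6 reads, and the 5p forms miR-6960-5p, with 22 and 6, and miR-6992-5p, with 18 and 5, had nearly the same TPM in both libraries. On the other side, miR-6971-3p had 24 and 2 reads, miR-6956-3p 17 and 1, and miR-6946-3p 16 and 1. miR-7052-3p had 13 control reads and miR-7075-3p 10, and both had 0 in the knockdown, which allows up to 0.939 TPM. None of these differences passed the adjusted test, with adjusted p from 0.137 (miR-7052-3p) upward in the exact binomial test.

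Above 1.5 TPM in the higher library stood 14 of the 154 members. Of the 14, 6 were reduced over 1.5-fold in the knockdown and 3 were raised, where over all 607 miRNAs above this level 41.5% were reduced and 15.8% raised. The reduced members were miR-7068-3p, miR-7015-3p, miR-6971-3p, miR-6956-3p, miR-6946-3p and miR-6989-3p, and the raised members miR-6911-3p, miR-7043-3p and miR-7035-3p. The median log2 ratio of the 14 was -0.25, compared with -0.37 for the 607.

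The 3p arm dominated. It held 92.4% of the control reads (95% Wilson interval 91.0 to 93.5%) and 91.0% of the knockdown reads (87.7 to 93.5%), and the intervals overlap. In the 326 other hairpins in the same range of reads the 3p arm held 49.2% of the control reads and 44.2% of the knockdown reads. The 326 are not matched in depth, since 210 of them had at least 10 reads over both libraries, against 24 in the series. Of the 127 hairpins listed for the series, 84 had more 3p reads, 37 more 5p reads and 6 equal numbers. Among those with at least 10 reads the 3p arm was higher in 22 of 24, the exceptions being Mir6960 and Mir6992, and in 191 of 386 hairpins with other numbers. No hairpin of the series had 10 reads on both arms. On its 5p arm Mir7068 had 1 read in each library. Of the 5 hairpins with at least 10 reads in each library, Mir6944, Mir7015 and Mir7035 had no 5p row, so their arm share could not differ. In Mir6911 and Mir7068, with 1 and 2 reads on the 5p arm, the two-sided Fisher exact test gave adjusted p of 0.771 and 0.620, adjusted over 297 hairpins of which 56 passed, and so few 5p reads could hardly show a difference.

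**Figure D5:**
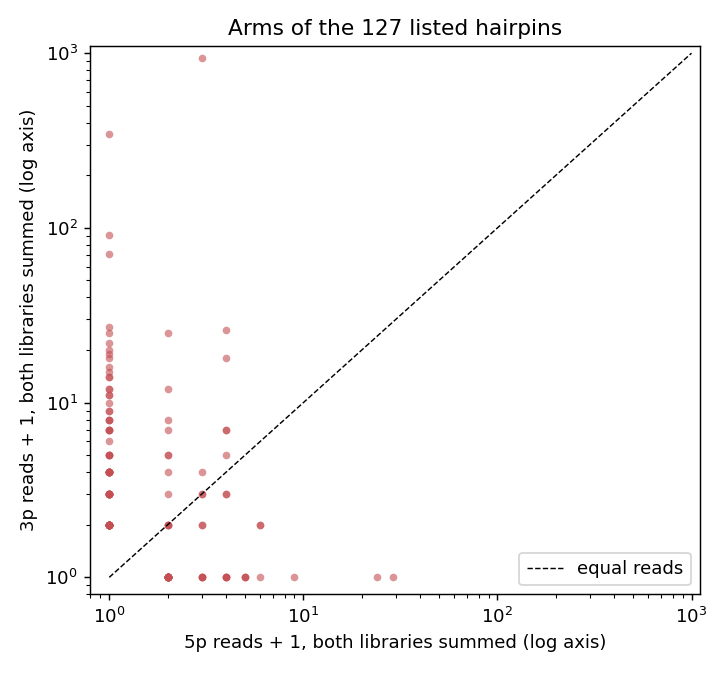
Reads + 1 of the 3p arm (y) against the 5p arm (x) for each of the 127 listed hairpins, both libraries summed, on log axes with equal reads as a dashed line. Of the 127, 84 lie above the line and 37 below it, and no point has 10 reads on both arms.

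The study tested the splicing of host introns for 13 hairpins of this range, and all 13 are listed. They are miR-6911, miR-6919, miR-6925, miR-6926, miR-6927, miR-6944, miR-6959, miR-6994, miR-7015, miR-7020, miR-7031, miR-7058 and miR-7068. The study drew them from intronic miRNAs that it called downregulated, over 1.5-fold and above 1 TPM, so a lower level here would not be independent evidence. It reported that the mirtron splicing events that changed went towards retention. By the deposited values, 5 of their 18 rows were lower and 13 higher in the knockdown library, most of these with 1 or 2 reads. Over all 1096 miRNAs 744 were lower. Of the 18 rows, only miR-7068-3p and miR-7015-3p were above 1 TPM and reduced over 1.5-fold. miR-6911-3p and miR-6944-3p were above 1 TPM and higher in the knockdown, and the other rows stayed below 1 TPM in both libraries. The 18 rows summed to 1150 control and 260 knockdown reads, a ratio of 0.744 (0.648 to 0.852). Of these reads, miR-7068 held 800 and 135, and miR-6944 held 251 and 91. miR-7031-3p, miR-6994-5p and miR-6919-5p had 4, 3 and 1 control reads and 0 knockdown reads. Of the 12 members of the whole series found in the knockdown library only, 10 belong to these 13 hairpins. miR-6994-3p among them had 2 knockdown reads, and the other 9 (miR-6911-5p, miR-6919-3p, miR-6925-5p, miR-6926-5p, miR-6927-3p, miR-6959-5p, miR-7020-3p, miR-7031-5p and miR-7058-5p) had 1 each. A control count of 0 allows up to 0.285 TPM, and the knockdown levels were higher, 0.313 TPM for 1 read and 0.626 TPM for miR-6994-3p. The exact intervals of these ratios still include 1, with lower ends of 0.0844 for 1 read and 0.618 for 2 reads. The hairpins miR-6925, miR-6926, miR-6927, miR-6959, miR-7020 and miR-7058 had 1 read each over both libraries, too few to show a change in either direction.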

How the data were processed

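Small RNAs of SPCs were sequenced as 1 library per group. Per the methods of the study, rRNA reads were removed, adaptors were trimmed, and the authors mapped the reads without mismatch to mature miRNAs of miRBase with CLC Genomics Workbench. The labels also name Cufflinks 2.1.1. The methods mention triplicate samples, and whether they were pooled is not given in the sources used here. The authors deposited read counts and a TPM value for each miRNA. The library totals were computed here as reads divided by TPM. The members, lists and tests were chosen with earlier results of these data known. Named members were the 10 with the most reads, those past the binomial test, the 5 largest rises and falls with at least 10 reads, hairpins with 10 reads on both arms, and the 13 hairpins tested by the study. Exact binomial and Fisher tests used scipy 1.17.1, were tested on simulated data, and TMM factors came from edgeR 4.0.16. Folds used a pseudocount of 0.1 TPM. Hairpins lay in an intron if at least 50% of their bases did, and where several introns qualified, that with ends closest to the hairpin ends was taken. Other samples of the series were not used here.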

Additional observations from a re-analysis of the deposited data

How the results depend on the processing

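No paired analysis was possible because a single library stands for each condition, and none could be left out. The ratio of summed TPM stayed below 1 in 8 of 8 alternatives, and a further alternative, leaving out members found in another hairpin, removed none. The ratio was 0.662 without the 5 members with the most reads. It was 0.818 with the median ratio, 0.831 with TMM factors, 0.852 without miR-7068-3p and 0.842 with 5p arms only, where the interval included 1. The median ratio and TMM scalings raise every log2 ratio by 0.19 and 0.22. With them 2 members passed the binomial test, the second being miR-6944-3p, higher in the knockdown (log2 ratio 0.45 and 0.47, adjusted p = 0.0451 and 0.0306, exact binomial test). miR-6960-5p turned to 0.038 and 0.060 and miR-6992-5p to 0.063 and 0.085, none of them past the test. With a minimum of 1 TPM 11 members were reduced, and with 10 TPM 1 was reduced and 0 raised. At 2-fold 3 were reduced and 0 raised, and 1 was raised with a pseudocount of 1. With no minimum 99 were reduced and 25 raised, but there 1 read against 0 already counted as a change (log2 ratio -0.96 or 2.05). Of the 154 members, 101 had 1 to 3 reads over both libraries. Shares over all miRNAs were not computed at these settings, so these counts show nothing particular to the series. With at least 3 reads 61 members were detected in the control, 12 in the knockdown and 11 in both, and with at least 10 reads 21, 4 and 4. The 3p share was 95.4% and 93.8% in hairpins with rows for both arms, and 86.0% and 86.4% without Mir7068, in control and knockdown. The ratio of the other late numbers turned from 5.00 to 0.517 when only rows with an arm label were summed, a choice made after seeing the data, since the rows without an arm label held most of the reads. For the other results the cause was not tested.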

Other observations

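The numbers of the series mostly run through the chromosomes in the order of their names, with Mir6973b on chromosome 2, within the run of chromosome 17, as an exception. Hairpins on chromosome 1 carry the numbers from miR-6896 to miR-6904, those on chromosome 10 from 6905 to 6917, those on chromosome 11 from 6918 to 6936 and those on chromosome X from miR-7091 to miR-7093. The 180 hairpins have 177 host genes, so nearly every hairpin has a host of its own. The 7 whole-intron hairpins with a sequence for a listed row held 64.8% of the control reads on rows with a sequence. Their 10 rows had a ratio of 0.709 (0.612 to 0.819). Without miR-7068-3p the ratio of these rows was 1.18, with an interval that includes 1. miR-7060-3p, from the whole-intron hairpin Mir7060, had 2 control reads but no sequence and is not counted here. The 114 rows with a sequence from hairpins at the intron 3′ end alone had 448 and 110 reads and a ratio of 0.808 (0.650 to 0.998).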
